A study of Mus musculus with 12 samples.

Results

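The circadian clock genes followed here are the 10 core members Per1, Per2, Per3, Cry1, Cry2, Arntl (also called Bmal1), Clock, Nr1d1, Nr1d2 and Dbp, chosen by symbol from the 17365 genes of a bulk RNA-seq count table of mouse adult neural stem cells (NSCs). All 10 were found, and all 10 passed the filter on low counts that kept 13312 genes for testing. The 12 libraries came from NSC cultures of the subventricular zone of mice aged 6 to 8 weeks, 6 from the line ANS4 (strain MF1) and 6 from the line BL6 (strain C57BL6). Each line was sampled with 2 replicates in proliferating EGF/FGF medium, 2 after BMP-4 alone (BMP, named d-qNSCs for dormant quiescence by the study) and 2 after BMP-4 with FGF2 (BMP/FGF, named p-qNSCs for primed quiescence). Every factor was given at 10 ng/ml, the BMP and BMP/FGF treatments lasted 3 days, and all cultures shared the N2 and B27 basal medium with laminin. The study withdrew EGF to induce quiescence, and BMP alone had no added FGF2. A comparison with EGF/FGF thus joins the added BMP-4 with the loss of EGF, and in BMP also of FGF2. The parts of these factors cannot be told apart there. A line stands for a single strain and a single culture history, which cannot be told apart, and the study calls its 2 replicates biological without saying whether they were separate derivations of a line, so that the p-values measure the spread between these libraries. The study asked how the dormant and the primed state differ from each other and from proliferating cells.

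The clock is a transcriptional feedback loop present in most mammalian cells. The proteins of Clock and Arntl pair and bind E-box motifs, which drives the Per and Cry genes, whose products in turn repress CLOCK and BMAL1. A further loop runs through the REV-ERB receptors of Nr1d1 and Nr1d2, which repress Arntl, and the ROR receptors, which activate it. Dbp encodes an activator of the PAR bZIP family that is itself an E-box target and acts on D-box motifs. Levels of many of these genes oscillate over the day in vivo and in synchronized cultures. The hour of harvest and of the last medium change are not given in the sources used here, so that a different mean level and a different phase of the oscillation cannot be told apart in any comparison that follows.

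The motifs of this loop were looked up in the RefSeq promoter windows of GRCm38.p6, using the 250 bases before each transcription start, on both strands. Windows were at hand for 9 of the 10 members (13 windows, since Clock, Arntl and Per1 have more than 1 start), and Per2 had none. The E-box CACGTG was found in 2 of the 13 windows, 1 of Per1 and that of Cry1, and in 6.02% of all 32851 windows. The D-box, searched as TTATGNAA, was found in 2 windows, those of Per1 and Per3, and in 3.07% of all windows. The core letters AGGTCA, to which REV-ERB and ROR receptors bind, were found in 3 windows (Per1, Clock and Nr1d2) and in 14.0% of all windows. A match is a description of the letters and not a measured binding site. Bases after the start or farther upstream were not searched, so that a window without a match does not show that the gene lacks the motif. The Per1 and Cry1 E-boxes, the paired D-boxes of Per3 and the core of Nr1d2 are shown as examples of the 3 motifs. The D-box of Per1 and the cores of Per1 and Clock are not printed, and the Arntl windows held none of the 3 motifs. The motif is in capitals, with 16 bases on each side, read 5′ to 3′ on the strand of the gene.
Per1 E-box: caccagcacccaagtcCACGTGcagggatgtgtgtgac
Cry1 E-box: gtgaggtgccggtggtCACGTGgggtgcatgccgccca
Per3 D-box, distal: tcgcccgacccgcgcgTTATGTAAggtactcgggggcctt
Per3 D-box, proximal: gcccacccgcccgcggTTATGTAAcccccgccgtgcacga
Nr1d2 core: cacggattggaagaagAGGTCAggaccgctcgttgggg
The Per1 stretch is chr11:69098767-69098804 on the plus strand, its motif begins 166 bases before the start, and it lies within the GENCODE span of the gene but in none of its exons. The Cry1 stretch is chr10:85185093-85185130 on the minus strand, with the motif beginning 60 bases before the start. The Per3 stretches are chr4:151044847-151044886 and chr4:151044800-151044839 on the minus strand, with motifs beginning 205 and 158 bases before the start. The Nr1d2 stretch is chr14:18239162-18239199 on the minus strand, with the core beginning 77 bases before the start. The Cry1, Per3 and Nr1d2 stretches lie upstream of the annotated genes.

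Library totals lay between 18069052 and 19451818 estimated counts, and the smallest total makes 1 count equal to 0.0553 CPM before TMM scaling, CPM being the count scaled to a library of fixed size. CPM values are scaled by edgeR's TMM factors, and "edgeR FDR" is the Benjamini-Hochberg adjusted p of its two-sided quasi-likelihood F-test over all tested genes, fitted on the 12 libraries with condition and line as terms. Genes were called at an edgeR FDR under 0.05. The proliferation gene Mki67 fell by 2.88 ± 0.16 (SE) on the log2 scale in BMP and by 3.78 ± 0.16 in BMP/FGF, as the condition labels imply. The 7 neural stem cell markers (Sox2, Nes, Vim, Slc1a3, Fabp7, Sox9 and Gfap) were all detected, with a summed level of 7299 to 7940 CPM under EGF/FGF medium, 10035 to 11197 under BMP and 12962 to 13445 under BMP/FGF. The sum pools the 7 markers and does not show how each of them moved. Markers of other cells were low beside these 7 but moved with the condition. The 6 neuron or neuroblast markers summed to 13.3 to 18.1 CPM under EGF/FGF, 302.4 to 610.8 under BMP and 94.0 to 103.1 under BMP/FGF, with Rbfox3 and Syt1 at 3 counts or fewer in every EGF/FGF library and Rbfox3 likewise in BMP/FGF. The 5 oligodendrocyte markers summed to 25.4 to 29.8, 154.6 to 182.1 and 256.1 to 266.1 CPM, with Mog at 3 counts or fewer in every EGF/FGF and BMP/FGF library. The 4 ependymal markers in the table summed to 62.9 to 78.0, 192.6 to 234.4 and 197.3 to 210.7 CPM, with Dnah5 at 3 counts or fewer in every EGF/FGF library. The 7 microglial markers in the table summed to 59.0 to 69.6, 57.8 to 68.4 and 79.8 to 86.7 CPM, with Csf1r at 3 counts or fewer in every library. The 3 endothelial markers in the table summed to 36.9 to 45.9, 4.12 to 5.65 and 13.5 to 17.2 CPM, with Tek at 3 counts or fewer in every BMP and BMP/FGF library. The part of these cells in the results below was not tested, and in bulk libraries fewer cells of a type and less RNA per cell cannot be told apart.

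Relative to EGF/FGF, the clock genes split into a rising majority, a falling pair and a pair that was not called in both treatments. In BMP, 6 of the 10 members were higher (Dbp, Cry2, Nr1d1, Nr1d2, Per3 and Per1), 2 were lower (Clock and Per2) and 2 were not called (Arntl and Cry1). Among all tested genes 40.8% were called higher and 38.8% lower in the same comparison, so that most genes of these cells changed. A call by itself thus does not set a clock gene apart from the other genes. In BMP/FGF the counts were again 6 higher, 2 lower and 2 not called, with the same members on each side, beside 40.9% of all tested genes higher and 38.0% lower. With the DESeq2 Wald test 5 were higher and 2 lower in BMP/FGF. Leaving out each library in turn gave 5 to 6 higher and 1 to 2 lower. The calls lost were those of Per1 or Per2, as given below. The BMP and BMP/FGF comparisons share the 4 EGF/FGF libraries. Whether the libraries of 2 conditions overlap is given below as a description. The share of all tested genes without overlap was not counted, so that a lack of overlap does not set a member apart. The median log2 fold change of the 10 members was 0.73 in BMP and 0.41 in BMP/FGF, against 0.02 and 0.02 over all tested genes. The median absolute log2 fold change was closer to that of all tested genes. It was 0.93 against 0.61 in BMP and 0.78 against 0.59 in BMP/FGF. Dbp was the single member past the study's threshold of an absolute log2 fold change of 1.5, which 17.8% of the tested genes passed in BMP and 16.7% in BMP/FGF. Between the 2 quiescent states, no member was higher in BMP/FGF than in BMP (20.1% of all tested genes were), 3 were lower (Nr1d1, Per1 and Cry2, with 21.3% of all tested genes lower) and 7 were not called. For the members higher in BMP/FGF than in BMP, the count was 0 in edgeR, 0 at an unadjusted p under 0.05 and 0 with the DESeq2 Wald test, but 2 in ANS4 alone (Per2 and Per3) and 1 in BL6 alone (Dbp).

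**Figure D1:**
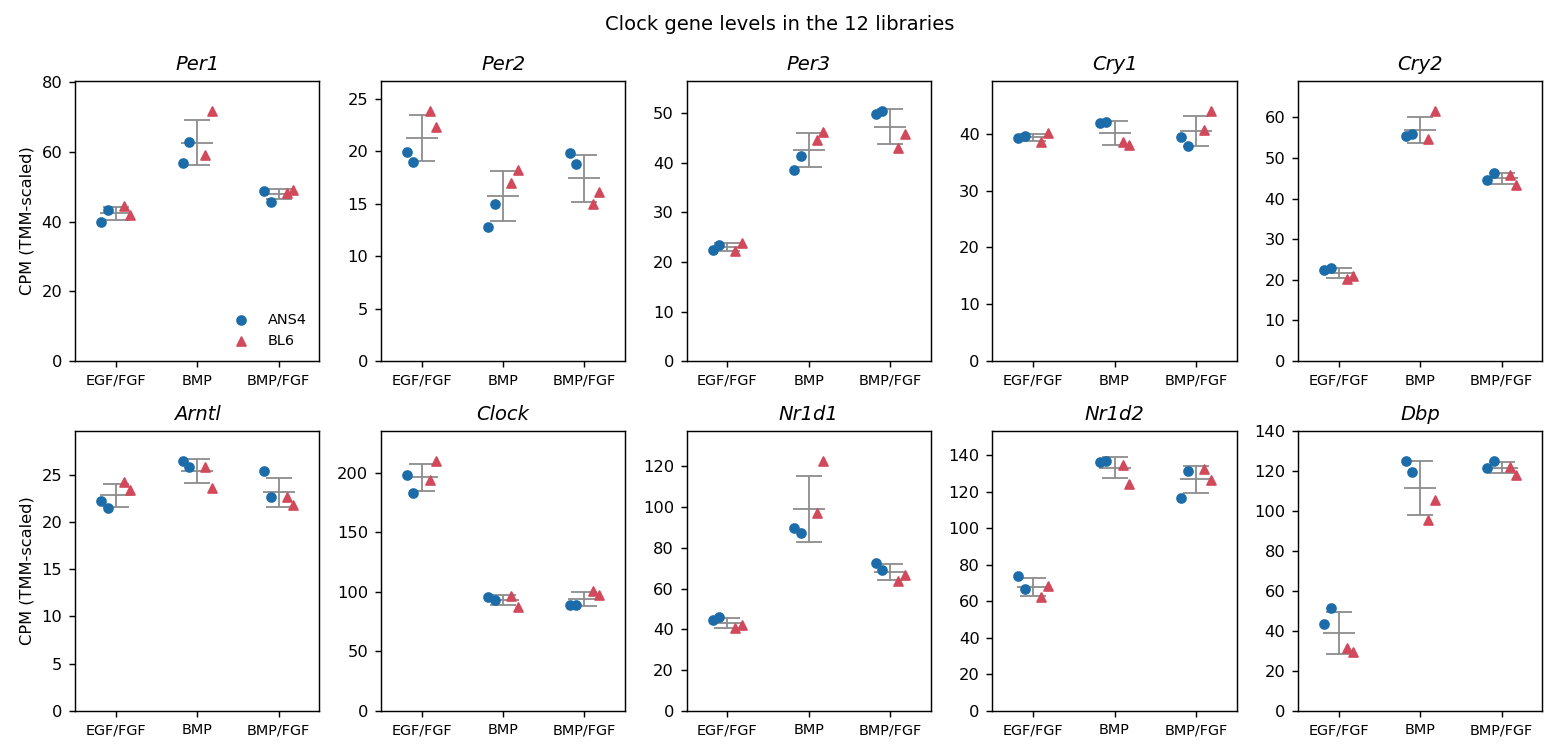
Level of each clock gene (y axis, TMM-scaled CPM from 0) in EGF/FGF, BMP and BMP/FGF (x axis), where circles are ANS4 libraries, triangles are BL6 libraries, and grey bars are the mean ± SD of 4 libraries. Clock is lower in both treatments, Cry2, Nr1d1, Nr1d2, Per3 and Dbp stand clear of EGF/FGF, and Cry1 and Arntl overlap between conditions.

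**Figure D2:**
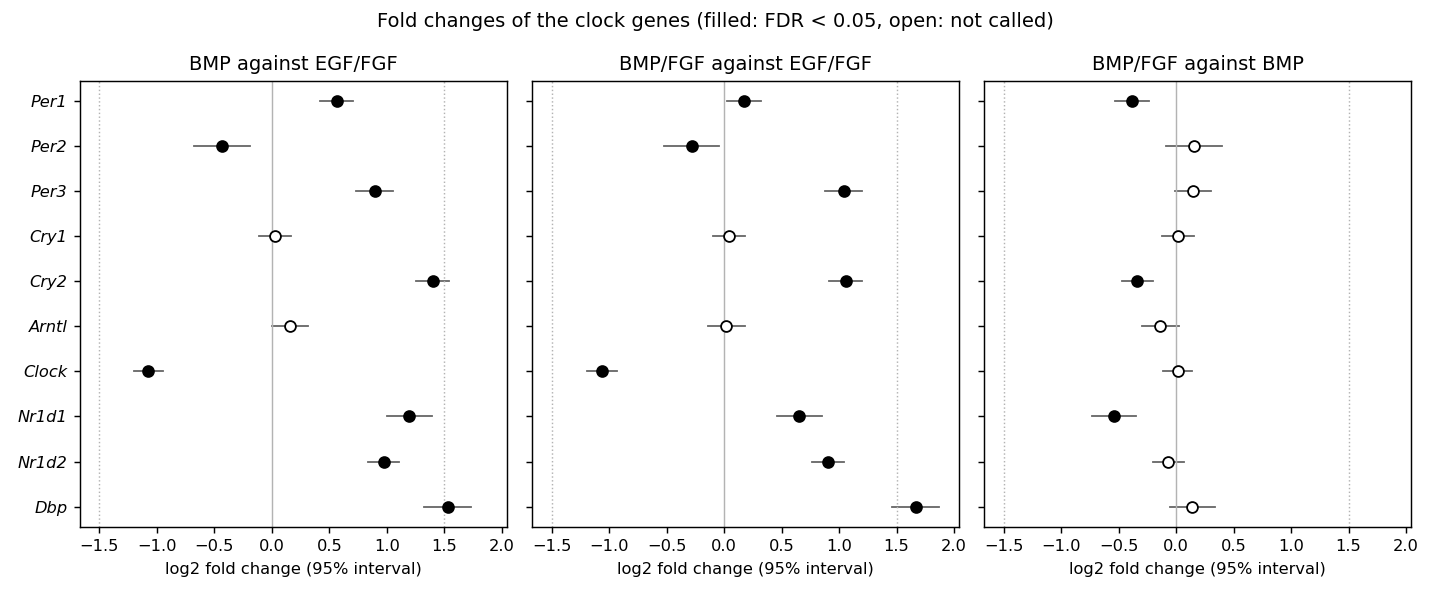
Log2 fold change (x axis, point with 95% interval) of each clock gene in the 3 comparisons, with filled points for an edgeR FDR under 0.05 and dotted lines at an absolute value of 1.5. Dbp, at 1.53 and 1.67, lies past the dotted line in BMP and BMP/FGF, and the values of BMP/FGF against BMP lie between -0.54 and 0.15.

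The activators moved apart. Clock (ENSMUSG00000029238, chr5:76209868-76304792, minus strand) encodes the bHLH-PAS partner of BMAL1. Its levels were 197.8 and 182.6 CPM in ANS4 and 194.0 and 210.1 CPM in BL6 under EGF/FGF. Under BMP they were 96.0 and 92.7 CPM in ANS4 and 96.6 and 86.8 CPM in BL6. Under BMP/FGF they were 88.8 and 89.3 CPM in ANS4 and 100.7 and 97.2 CPM in BL6. Every treated library was thus lower than every EGF/FGF library, and the 2 treatments overlapped. Clock fell by 1.07 ± 0.06 on the log2 scale in BMP (2.11-fold lower, edgeR FDR = 1.94e-11) and by 1.06 ± 0.06 in BMP/FGF (2.09-fold lower, edgeR FDR = 2.42e-11). The difference between the treatments was 0.01, with a 95% interval of -0.12 to 0.14.

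Arntl (ENSMUSG00000055116, chr7:113207465-113314126, plus strand) encodes BMAL1, the partner of CLOCK and the target of the REV-ERB receptors. It measured 22.8 ± 1.20 CPM (SD, n = 4) in EGF/FGF, 25.4 ± 1.26 in BMP and 23.1 ± 1.57 in BMP/FGF, and all 3 conditions overlapped. Its highest library was ANS4 BMP replicate 1 with 26.5 CPM and its lowest was ANS4 EGF/FGF replicate 2 with 21.5 CPM. The log2 fold change of 0.16 in BMP had a 95% interval of -0.003 to 0.315 and was not called (edgeR FDR = 0.0673). It was called when either BL6 BMP replicate 2 (0.19, edgeR FDR = 0.0315) or BL6 EGF/FGF replicate 1 (0.19, edgeR FDR = 0.0457) was left out, and with library size only (0.17, edgeR FDR = 0.0470). In ANS4 alone it was 0.26 and called (edgeR FDR = 0.0149), and in BL6 alone it was 0.038 and not called (edgeR FDR = 0.742), and the line difference itself was not called (-0.21, edgeR FDR = 0.354). The interval in BMP/FGF was -0.14 to 0.18, and both intervals ended short of the size of the Clock change.

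The PER genes, whose proteins carry the repressive arm together with the CRY proteins, did not move as a block. Per3 (ENSMUSG00000028957, chr4:151003652-151044665, minus strand) measured 22.3 and 23.5 CPM in ANS4 and 22.3 and 23.8 CPM in BL6 under EGF/FGF. It measured 38.5 and 41.4 CPM in ANS4 and 44.5 and 46.2 CPM in BL6 under BMP, and 49.9 and 50.4 CPM in ANS4 and 43.1 and 45.7 CPM in BL6 under BMP/FGF. Treated and EGF/FGF libraries did not overlap, whereas the treatments overlapped with each other. Per3 rose 1.86-fold in BMP (log2 0.89 ± 0.08, edgeR FDR = 6.02e-09) and 2.06-fold in BMP/FGF (log2 1.04 ± 0.08, edgeR FDR = 7.47e-10). The interval of the difference between the treatments was -0.01 to 0.30.

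Per1 (ENSMUSG00000020893, chr11:69095217-69109960, plus strand), which also responds quickly to cAMP and glucocorticoid signals in many cells, was highest in BMP. Its levels were 40.0 and 43.3 CPM in ANS4 and 44.4 and 41.8 CPM in BL6 under EGF/FGF. They were 56.9 and 62.7 CPM in ANS4 and 59.2 and 71.6 CPM in BL6 under BMP. They were 48.6 and 45.7 CPM in ANS4 and 48.1 and 49.1 CPM in BL6 under BMP/FGF. The 3 conditions did not overlap, in the order EGF/FGF, BMP/FGF and BMP. Per1 rose by 0.56 ± 0.07 on the log2 scale in BMP (1.48-fold, edgeR FDR = 7.28e-07) and dropped by 0.39 ± 0.07 from BMP to BMP/FGF (edgeR FDR = 0.000269). The rise in BMP/FGF was small, at 0.18 ± 0.07 (edgeR FDR = 0.0286). That call was lost without ANS4 BMP/FGF replicate 1 (0.14, edgeR FDR = 0.105), ANS4 EGF/FGF replicate 1 (0.16, edgeR FDR = 0.0781), BL6 BMP/FGF replicate 1 (0.18, edgeR FDR = 0.0512), BL6 BMP/FGF replicate 2 (0.16, edgeR FDR = 0.0697) or BL6 EGF/FGF replicate 2 (0.15, edgeR FDR = 0.0846).

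Per2 (ENSMUSG00000055866, chr1:91415982-91459324, minus strand) went the other way. It measured 19.9 and 19.0 CPM in ANS4 and 23.8 and 22.3 CPM in BL6 under EGF/FGF, and 12.8 and 14.9 CPM in ANS4 and 16.9 and 18.2 CPM in BL6 under BMP. Under BMP/FGF it measured 19.8 and 18.8 CPM in ANS4 but 15.0 and 16.1 CPM in BL6. BMP and EGF/FGF libraries did not overlap, whereas the ANS4 libraries of BMP/FGF lay within the EGF/FGF range or just under it. The BL6 libraries of BMP/FGF lay within the BMP range of the 2 lines together, but under each BL6 BMP library. Per2 fell by 0.44 ± 0.11 on the log2 scale in BMP (edgeR FDR = 0.00203) and by 0.28 ± 0.11 in BMP/FGF (edgeR FDR = 0.0312). The second call rested on BL6, since the log2 fold change was -0.01 in ANS4 alone (edgeR FDR = 0.897) and -0.59 in BL6 alone (edgeR FDR = 0.000259). It was lost without BL6 BMP/FGF replicate 1 (-0.20, edgeR FDR = 0.121), BL6 BMP/FGF replicate 2 (-0.23, edgeR FDR = 0.0925), BL6 EGF/FGF replicate 1 (-0.24, edgeR FDR = 0.0898) or BL6 EGF/FGF replicate 2 (-0.28, edgeR FDR = 0.0592).

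Of the cryptochromes, the direct repressors of CLOCK and BMAL1, Cry2 rose in both treatments and Cry1 was not called in either. Cry2 (ENSMUSG00000068742, chr2:92403646-92434043, minus strand) measured 22.5 and 22.8 CPM in ANS4 and 20.2 and 21.0 CPM in BL6 under EGF/FGF. It measured 55.5 and 55.9 CPM in ANS4 and 54.7 and 61.5 CPM in BL6 under BMP, and 44.6 and 46.4 CPM in ANS4 and 45.8 and 43.3 CPM in BL6 under BMP/FGF. No 2 conditions overlapped. Cry2 rose 2.63-fold in BMP (log2 1.40 ± 0.07, edgeR FDR = 1.87e-12) and 2.08-fold in BMP/FGF (log2 1.06 ± 0.07, edgeR FDR = 1.01e-10), and from BMP to BMP/FGF it dropped by 0.34 ± 0.06 (edgeR FDR = 0.000452). By the p of BMP against EGF/FGF, Cry2 ranked 824 of 13312 tested genes, the highest place of any member there. Cry1 (ENSMUSG00000020038, chr10:85131700-85185064, minus strand) measured 39.4 ± 0.67 CPM (SD, n = 4) in EGF/FGF, 40.2 ± 2.13 in BMP and 40.5 ± 2.58 in BMP/FGF. Its 95% intervals were -0.11 to 0.17 for BMP and -0.10 to 0.18 for BMP/FGF against EGF/FGF, both short of the Cry2 values. The antisense transcript D930015M05Rik, which shares 4.67% of the exon bases of Cry2, was at 0.443 CPM or less in every library.

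The REV-ERB receptors, heme-binding repressors of Arntl, rose together in both treatments and parted between the treatments. Nr1d2 (ENSMUSG00000021775, chr14:18204054-18239127, minus strand) measured 73.7 and 66.9 CPM in ANS4 and 62.3 and 68.4 CPM in BL6 under EGF/FGF. It measured 136.2 and 137.0 CPM in ANS4 and 134.6 and 124.5 CPM in BL6 under BMP, and 116.4 and 131.4 CPM in ANS4 and 132.7 and 126.7 CPM in BL6 under BMP/FGF. Both treatments stood above EGF/FGF in every library and overlapped with each other. Nr1d2 rose by 0.97 ± 0.07 on the log2 scale in BMP (edgeR FDR = 1.64e-10) and by 0.90 ± 0.07 in BMP/FGF (edgeR FDR = 4.88e-10), and the interval between the treatments was -0.20 to 0.06.

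Nr1d1 (ENSMUSG00000020889, chr11:98767932-98775333, minus strand) measured 44.4 and 45.9 CPM in ANS4 and 40.6 and 42.1 CPM in BL6 under EGF/FGF. It measured 89.5 and 87.1 CPM in ANS4 and 97.2 and 122.7 CPM in BL6 under BMP, and 72.8 and 69.0 CPM in ANS4 and 63.9 and 66.4 CPM in BL6 under BMP/FGF. As for Per1 and Cry2, the conditions did not overlap and BMP/FGF lay between the others. Nr1d1 rose 2.29-fold in BMP (log2 1.20 ± 0.09, edgeR FDR = 1.33e-09) and 1.57-fold in BMP/FGF (log2 0.65 ± 0.09, edgeR FDR = 4.36e-06). From BMP to BMP/FGF it dropped by 0.54 ± 0.09 (edgeR FDR = 0.000139), with values of -0.32 in ANS4 alone and -0.75 in BL6 alone. The Thra gene on the opposite strand shares 263 exon bases, or 8.55% of those of Nr1d1, and was also higher in BMP (log2 2.17) and BMP/FGF (log2 1.92) and lower in BMP/FGF than in BMP (-0.25). The strandedness of the libraries is not given in the sources used here, and without strand the reads of the shared bases cannot be told apart.

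Dbp (ENSMUSG00000059824, chr7:45705088-45710203, plus strand), the PAR bZIP activator, made the largest rise of the members. Its levels were 43.6 and 51.6 CPM in ANS4 and 31.3 and 29.7 CPM in BL6 under EGF/FGF. They were 125.2 and 119.7 CPM in ANS4 and 95.3 and 105.7 CPM in BL6 under BMP, and 121.5 and 125.0 CPM in ANS4 and 122.3 and 118.2 CPM in BL6 under BMP/FGF. Treated libraries stood above every EGF/FGF library, and the lines were apart in EGF/FGF and BMP but overlapped in BMP/FGF. Dbp rose 2.88-fold in BMP (log2 1.53 ± 0.10, edgeR FDR = 9.02e-11) and 3.17-fold in BMP/FGF (log2 1.67 ± 0.10, edgeR FDR = 3.03e-11), and the interval of the difference between the treatments was -0.06 to 0.33. Sphk2 on the opposite strand shares 18.0% of the exon bases of Dbp and rose less, by 0.66 in BMP and 0.60 in BMP/FGF on the log2 scale. The BMP value was under the threshold of 1.5 without BL6 BMP replicate 2, BL6 EGF/FGF replicate 1 or BL6 EGF/FGF replicate 2. In ANS4 alone the Dbp values were 1.36 and 1.37, also under 1.5, and in BL6 alone they were 1.70 and 1.96.

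**Figure D3:**
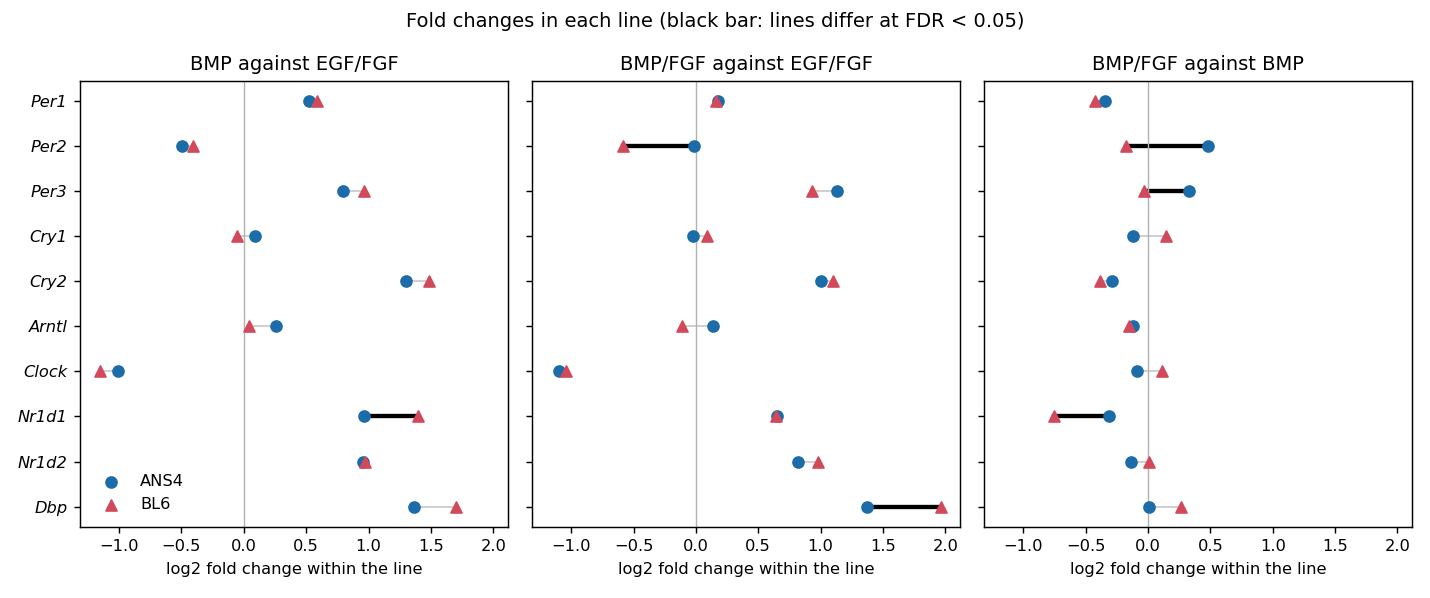
Log2 fold change of each clock gene fitted within ANS4 (circles) and within BL6 (triangles) for the 3 comparisons, joined by a thick black bar where the lines differed at an edgeR FDR under 0.05. The bars stand at Nr1d1 in BMP against EGF/FGF, at Per2 and Dbp in BMP/FGF against EGF/FGF, and at Per2, Per3 and Nr1d1 in BMP/FGF against BMP.

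Whether the lines responded alike was tested with a line by condition term, read as the BL6 effect minus the ANS4 effect. In BMP against EGF/FGF 1 member was called (Nr1d1, with 9.02% of all tested genes called), in BMP/FGF against EGF/FGF 2 were (Per2 and Dbp, with 4.98%), and in BMP/FGF against BMP 3 were (Per2, Per3 and Nr1d1, with 13.5%). The Dbp rise in BMP/FGF was larger in BL6 by 0.61 ± 0.12 (edgeR FDR = 0.00584), from an EGF/FGF level of 30.5 CPM in BL6 and 47.6 CPM in ANS4 to 120.3 and 123.3 CPM. Per2 changed from BMP to BMP/FGF by 0.48 on the log2 scale in ANS4 and by -0.18 in BL6, a line difference of -0.66 ± 0.15 (edgeR FDR = 0.00741). Both of these differences stayed called in each of the 12 fits that left out a single library. The Nr1d1 rise in BMP was larger in BL6 by 0.44 ± 0.13 (edgeR FDR = 0.0370), but this call was lost in 11 of the 12 such fits. The value was 0.27 without BL6 BMP replicate 2, whose 122.7 CPM was the highest Nr1d1 level. The neuron or neuroblast markers were also higher in BL6 BMP, summing to 602.0 to 610.8 CPM there and to 302.4 to 308.0 CPM in ANS4 BMP. So was the proliferation gene Mki67, with a mean of 123.9 CPM in BL6 BMP and 58.9 CPM in ANS4 BMP. The part of these markers and of Mki67 in the Nr1d1 difference was not tested. Over all conditions no member was called by edgeR between BL6 and ANS4, beside 1.80% of all tested genes. At an unadjusted p under 0.05 the count was 1, Dbp (-0.30 ± 0.08, edgeR FDR = 0.0528), and the DESeq2 Wald test called it (DESeq2 adjusted p = 0.0101). It was also called by edgeR without any one of the 4 BMP/FGF libraries (-0.35 to -0.34, edgeR FDR 0.0338 to 0.0450).

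Levels of different genes can be set side by side only per transcript length, here CPM divided by the kilobases of the longest protein-coding transcript in GENCODE vM21. In EGF/FGF the order was led by Dbp with 21.3 ± 5.67 CPM per kilobase (SD, n = 4) and Clock with 20.1 ± 1.16, whose libraries overlapped, followed by Nr1d1 with 15.9 ± 0.87 and Nr1d2 with 14.5 ± 1.01, which overlapped too. Cry1 (13.0), Per1 (9.07), Arntl (7.67) and Cry2 (5.43) followed without overlap between neighbours, and Per3 (3.83) and Per2 (3.65) overlapped at the bottom. In BMP Clock stood at place 7 with 9.55 ± 0.46, and Dbp with 60.7 ± 7.38 did not overlap its neighbour Nr1d1 with 36.4 ± 5.99. Cry2, Per1 and Cry1 overlapped with each other there, at 14.3, 13.4 and 13.3. In BMP/FGF Dbp led with 66.3 ± 1.53, ahead of Nr1d2 with 27.2 ± 1.58 and Nr1d1 with 25.0 ± 1.39, which overlapped, and Per2 was last with 2.98 ± 0.39. The order in the middle depends on the length chosen, since with the median coding transcript length Nr1d2 and Cry1 moved above Nr1d1 in EGF/FGF, whereas over both lines Dbp stayed first and Per2 last in each condition. Within BL6 in EGF/FGF these places changed, since Clock (20.7) stood above Dbp (16.6) and Per2 (3.96) above Per3 (3.84). In ANS4, and in BL6 under BMP or BMP/FGF, Dbp was first and Per2 last with either length.

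**Figure D4:**
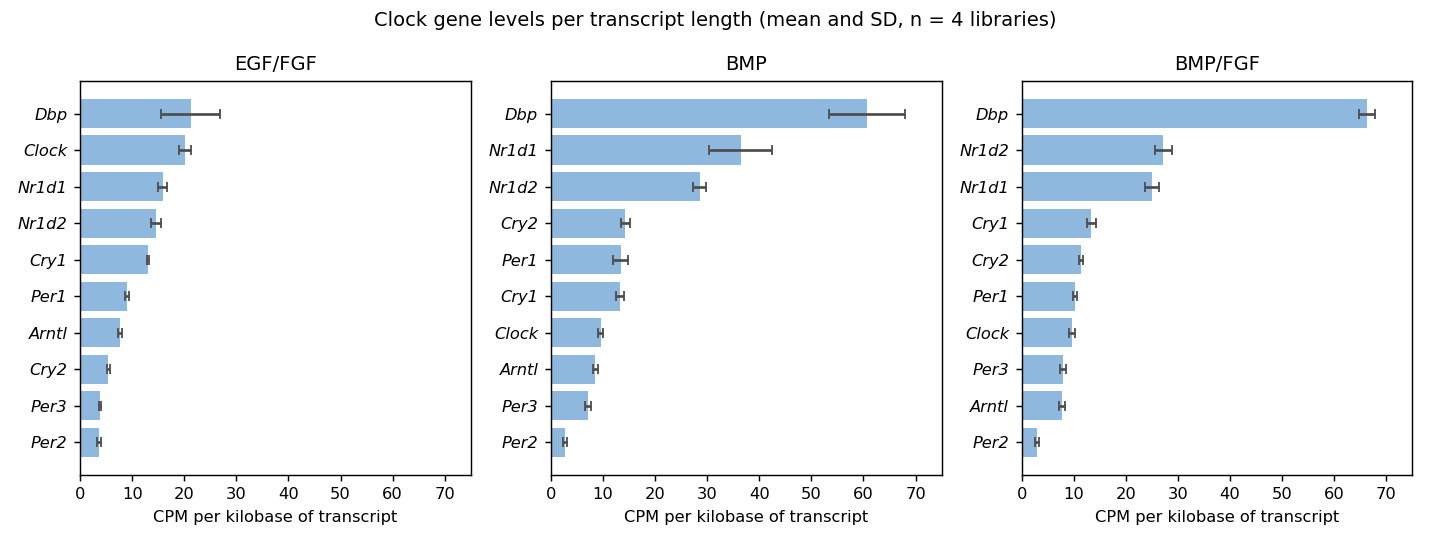
Mean CPM per kilobase of the longest coding transcript (x axis, bars from 0, SD of 4 libraries) of each clock gene, ordered by level in each condition. Over both lines Dbp is first in all 3 panels, at 21.3, 60.7 and 66.3, and Clock goes from place 2 in EGF/FGF to place 7 in BMP and BMP/FGF.

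Beyond the core members, 24 further genes of the clock were listed by role and found in the table, of which 23 were tested (Arntl2, at 0.364 CPM or less in every library, was not). With BMP, 12 rose, 7 fell and 4 were not called. With BMP/FGF, 10 rose, 9 fell and 4 were not called. Between the treatments 5 were higher in BMP/FGF, 10 lower and 8 not called. The count of 10 went to 6 without ANS4 BMP/FGF replicate 2 or without BL6 BMP/FGF replicate 2. Their median log2 fold change was 0.13 in BMP and 0.06 in BMP/FGF. These counts, and the counts by role that follow, are to be read against the share of all tested genes called higher and lower, given above for each comparison.

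Rora, whose product is a ROR receptor that activates Arntl, rose in both treatments, from 11.2 CPM to 79.0 and 62.8 (log2 2.82 ± 0.10 and 2.48 ± 0.10, edgeR FDR = 5.37e-14 and 2.88e-13). Npas2, which can stand in for CLOCK, went from 3.49 CPM to 9.62 and 6.72 (log2 1.46 ± 0.12 and 0.94 ± 0.12, edgeR FDR = 1.60e-09 and 9.93e-07). The repressing REV-ERB receptors and the activating Rora were thus both called higher, whereas Arntl was not called over both lines. Rorb was not called in any comparison.

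The PAR bZIP relatives of Dbp rose with it. Hlf had a mean of 12.8 CPM in EGF/FGF, 49.0 with BMP and 58.5 with BMP/FGF (log2 1.94 ± 0.07 and 2.19 ± 0.07, edgeR FDR = 5.37e-14 and 1.08e-14), and Tef was also higher in both. Their D-box competitor Nfil3 was lower in BMP/FGF and not called in BMP. Of the 4 feedback repressors, Bhlhe41 and Cipc were higher and Bhlhe40 and Ciart lower in both treatments. Bhlhe41 rose by 0.67 ± 0.09 in BMP and 1.11 ± 0.09 in BMP/FGF on the log2 scale (edgeR FDR = 1.76e-06 and 1.94e-09).

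Of the 7 kinases and F-box proteins that act on PER or CRY stability, 5 rose and 1 fell with BMP. Among all tested genes 40.8% were higher and 38.8% lower in that comparison. With BMP/FGF 3 of the 7 rose and 2 fell, beside 40.9% and 38.0% of all tested genes. Fbxl21, an F-box protein that binds the cryptochromes, fell by 1.39 ± 0.20 and 1.30 ± 0.20 on the log2 scale (edgeR FDR = 5.39e-06 and 1.16e-05) from 3.90 CPM. Of the 4 other outputs, 3 were lower in both treatments. Wee1, a kinase that holds back mitosis, fell by 1.38 ± 0.07 in BMP and 1.76 ± 0.07 in BMP/FGF (edgeR FDR = 2.90e-12 and 1.46e-13). Timeless, whose mammalian product works mainly at replication forks, fell by 2.26 ± 0.10 and 2.93 ± 0.10 (edgeR FDR = 3.77e-13 and 2.55e-14), and Mki67 and the other cell cycle genes Top2a, Ccnb1 and Cdk1 fell in the same libraries, from Cdk1 in BMP, which fell by 2.42, to Ccnb1 in BMP/FGF, which fell by 3.86. The part of the cell cycle in the fall of Wee1 and Timeless was not tested.

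**Figure D5:**
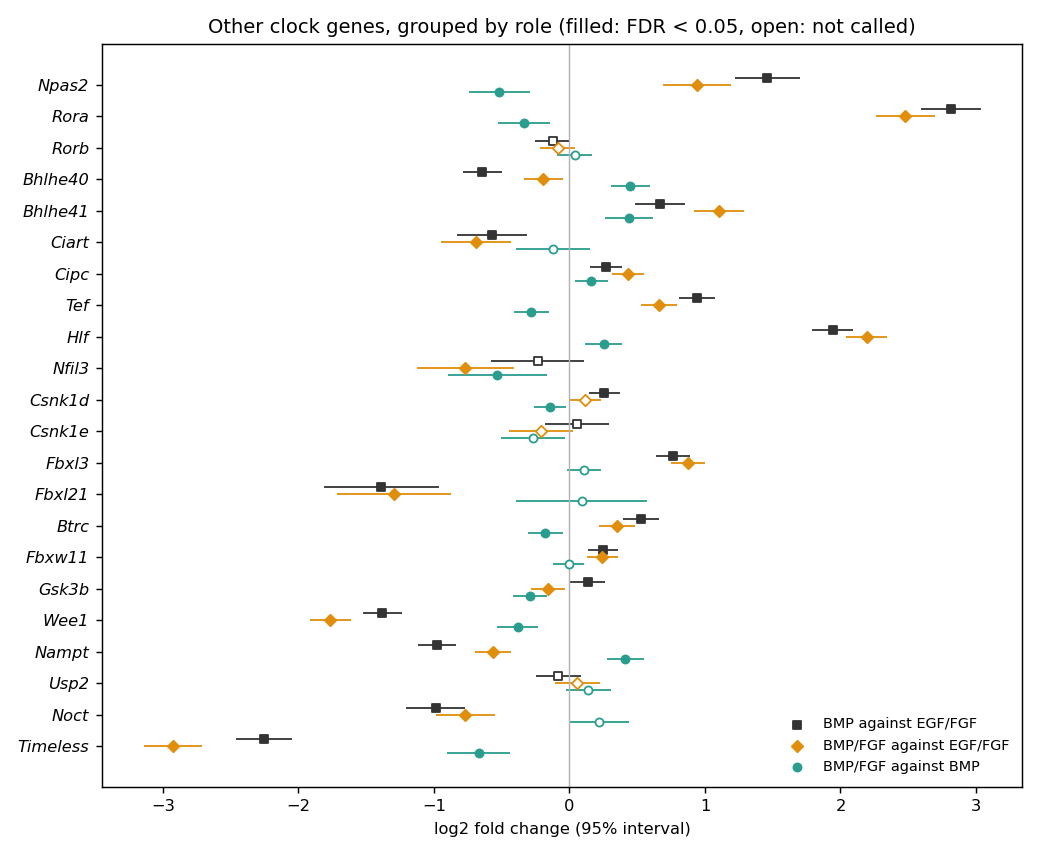
Log2 fold change (x axis, 95% interval) of the further clock genes tested, 1 not shown, grouped by role from Npas2 to Timeless, with squares for BMP against EGF/FGF, diamonds for BMP/FGF against EGF/FGF and circles for BMP/FGF against BMP; filled symbols have an edgeR FDR under 0.05. Rora and Hlf lie farthest to the right and Timeless farthest to the left.

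The genes most like 4 of the members were ranked by Pearson r of log2 CPM over the 12 libraries, with the mean of each line removed, among 12465 genes of at least 1 CPM on average. Since the libraries fall into 3 conditions, r mainly reads the order of the condition means, and it is given as a description. The nearest to Dbp were Slc49a4 (r = 0.997), Relb (0.996) and Kcna5 (0.996), and the nearest to Nr1d1 were Mvb12b (0.993), Plekhm1 (0.992) and Tubb4a (0.992). The nearest to Per1 were Vangl2 (0.995), Rtn2 (0.982) and Zfp687 (0.981). For Arntl, whose conditions overlapped, the nearest were Dok6 (0.900), Tex9 (0.897) and Nme7 (0.885), lower than for the other members.

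The members were also compared for reads they could share with other genes, by the 31-base words of their transcripts. Per1, Per2 and Cry1 shared none with any other gene, and Per3, Arntl and Clock shared 0.652%, 0.0922% and 0.0800%. Dbp shared 16.9%, with Sphk2, Nr1d1 7.85%, with Thra, and Cry2 4.11%, mostly with D930015M05Rik. Nr1d2 shared 9.51% of its words with the annotated transcript AC170187.1, which is not a row of the count table under that name. No member shared a word with another member, the PER and CRY paralogs included.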

How the data were processed

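RNA of 12 NSC cultures was made into low input BGISEQ-500RS libraries. Per the labels and methods, the authors used Trim Galore 0.5.0 for trimming, kallisto 0.44.0 with the transcriptome of mm10, and tximport for gene sums. Their deposited table gives estimated counts rounded to whole numbers, 18069052 to 19451818 per library. A further table deposited by the authors, named for normalised counts, holds log2 values from DESeq2's regularized logarithm (rlog). All per-sample columns were used, and groups came from the sample labels.

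From the counts, genes were filtered with filterByExpr, scaled by TMM and tested with edgeR 4.0.16 (R 4.3.3) by glmQLFit and glmQLFTest on all 12 libraries with condition and line as terms. A fit of the 6 line and condition groups gave the line differences. Intervals are 95% from the fit's standard error. Log2 CPM used a prior count of 2. The methods of the study name DESeq2 with an adjusted p of 0.05 and an absolute log2 fold change of 1.5. The line term was added because each condition holds 2 lines. Before TMM scaling a single count equals 0.0514 to 0.0553 CPM. The steps were tested on simulated counts in which a small set of genes changed, in BMP/FGF only. That setting is unlike the comparisons with EGF/FGF, where most genes were called, and does not show how the steps perform there.

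Values were given for all 10 members, for further clock genes where an absolute log2 fold change passed 1, and for the 3 most alike genes of 4 members. Other clock genes were named without values, to say which genes a count covers, and were chosen after their values were seen. The values of 1 further clock gene are not reported here, though counts include it. The members, lists and tests were chosen with earlier results of these data known. Alternatives were DESeq2 1.42.0 (size factors and Wald test), library size only, no filter, no line term, only the 8 libraries of a comparison, a replicate block, ANS4 or BL6 by itself, limma 3.58.1 on the rlog values, and each library left out in turn. Gene models came from GENCODE vM21 on GRCm38, promoter windows from RefSeq on GRCm38.p6, and tables were made in Python 3.11.15.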

Additional observations from a re-analysis of the deposited data

Results flagged for a closer look

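The effect of a condition differed between the lines in 6 tests of a clock gene, each read as the BL6 effect minus the ANS4 effect (edgeR line by condition term, Benjamini-Hochberg adjusted over 13312 genes). In BMP against EGF/FGF, Nr1d1 differed by 0.444 (edgeR FDR = 0.0370), with a rise of 0.97 in ANS4 and 1.39 in BL6. This call was lost in 11 of the 12 fits that left out a library (edgeR FDR 0.0534 to 0.123), all but that without BL6 BMP replicate 1, and the value without BL6 BMP replicate 2 was 0.267. In BMP/FGF against EGF/FGF, Dbp differed by 0.607 (edgeR FDR = 0.00584) and Per2 by -0.558 (edgeR FDR = 0.0320). The Dbp call held in all 12 such fits, between 0.480 and 0.722, whereas the Per2 call was lost without any library of EGF/FGF or BMP/FGF (values -0.614 to -0.505, edgeR FDR 0.0592 to 0.151) and kept without each of the BMP libraries. In BMP/FGF against BMP, Per2 differed by -0.658 (edgeR FDR = 0.00741), Nr1d1 by -0.438 (edgeR FDR = 0.0250) and Per3 by -0.360 (edgeR FDR = 0.0360). The Per2 call held in all 12 fits, between -0.777 and -0.536. The Nr1d1 call was lost without either ANS4 BMP library, any BMP/FGF library or BL6 BMP replicate 2 (edgeR FDR 0.0502 to 0.121), and its value without BL6 BMP replicate 2 was -0.261. The Per3 call was lost without ANS4 BMP replicate 1 or any BMP/FGF library (edgeR FDR 0.0786 to 0.171), with values from -0.393 to -0.296, and with the DESeq2 Wald test (-0.348, DESeq2 adjusted p = 0.0946).

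No library stood apart by the gap to its nearest neighbour in any of the 30 sets of 4 libraries (10 genes in 3 conditions), where chance alone gives about 1 in 20. Each set joins both lines, so that a difference between lines widens its spread. The rule cannot show that no call rests on a single library. It did not flag BL6 BMP replicate 2 for Nr1d1, without which the line difference went from 0.444 to 0.267.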

How the results depend on the processing

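With 22 alternatives for each of the 3 comparisons, the calls of Clock, Cry2, Nr1d1, Nr1d2, Dbp and Per3 against EGF/FGF, of Per1 and Per2 in BMP, and of Per1, Cry2 and Nr1d1 between the treatments kept their direction and stayed called throughout. Per1 in BMP/FGF against EGF/FGF was not called with library size only (0.15), the DESeq2 Wald test (0.16), limma on the rlog values (0.13) or BL6 alone (0.16). Under the 3 scalings the median log2 fold change of all genes lay between -0.05 and 0.04. The cause of the changes below was not tested, except that fits of a single line use fewer libraries.

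ANS4 alone called 5 members between BMP/FGF and BMP, 2 of them higher, and BL6 alone called 1 higher. ANS4 alone also called 1 member lower in BMP/FGF than in EGF/FGF, and 0 past 1.5 in BMP or in BMP/FGF against EGF/FGF. Limma on the rlog values gave 0 past 1.5 in BMP. For line differences, library size only gave 2 and no filter 0 in BMP against EGF/FGF, and the DESeq2 Wald test gave 1 in BMP/FGF against EGF/FGF. The DESeq2 Wald test called 1 member between BL6 and ANS4. Leaving out each library in turn gave 6 to 8 members called in BMP/FGF against EGF/FGF, with 5 to 6 higher and 1 to 2 lower. It gave 0 to 1 past 1.5 in BMP (0 without BL6 BMP replicate 2, BL6 EGF/FGF replicate 1 or BL6 EGF/FGF replicate 2), and 0 to 1 between the lines. It gave line differences of 0 to 2, 1 to 2 and 1 to 3 members in BMP against EGF/FGF, BMP/FGF against EGF/FGF and BMP/FGF against BMP. For the further clock genes lower in BMP/FGF than in BMP it gave 6 to 10, with 6 without ANS4 BMP/FGF replicate 2 or without BL6 BMP/FGF replicate 2.

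Values that turned direction all belonged to members that were not called. Cry1 was -0.055 (BL6 alone) in BMP and -0.027 (ANS4 alone) in BMP/FGF against EGF/FGF, and between the treatments -0.118 (ANS4 alone), -0.031 (library size only) and -0.00013 (limma). Arntl in BMP/FGF against EGF/FGF was -0.113 (BL6 alone), -0.00031 (DESeq2 Wald test), -0.0056 (library size only) and -0.051 (limma). Between the treatments Clock was -0.085 (ANS4 alone), -0.00019 (DESeq2 size factors) and -0.032 (library size only), Per2 -0.178, Per3 -0.029 and Nr1d2 0.0039 (BL6 alone). Leaving out each library gave values for Cry1 of -0.0019 to 0.057 (BMP against EGF/FGF), -0.020 to 0.075 (BMP/FGF against EGF/FGF) and -0.042 to 0.049 (between the treatments), for Arntl of -0.041 to 0.054 (BMP/FGF against EGF/FGF), and for Clock of -0.036 to 0.037 between the treatments.

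The replicate differences of 2 conditions of a line correlated by -0.071 to 0.053 over 13312 genes. Libraries of the same replicate number thus showed no shared deviation. Whether their cultures were handled together is not given in the sources used here, and these values cannot show it. With the replicate number as a block, line differences in BMP/FGF against EGF/FGF went from 2 members to 1, with Per2 at an edgeR FDR of 0.0503, and the block changed no other call of a member.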
